A study of Sus scrofa with 8 samples.

Results

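ADRA2C, ADGRB1 and ADGRG1 encode G-protein-coupled receptors, the first a receptor for catecholamines and the others adhesion receptors, and their expression was compared in the backfat of 2 local Portuguese pig breeds. They were chosen by name, as 3 of the 458 genes for which normalized counts of each pig were available. These are the genes that the authors had called between the breeds in the same pigs, so that the tests below are not independent. The RNA came from the dorsal subcutaneous fat of purebred castrated males, 4 of the Alentejano breed (AL) and 4 of the Bísaro breed (BI), with 1 library per pig. All were fed ad libitum in the same free-range system and carry a carcass weight label of 150 kg. The AL pigs had been on trial for longer than the BI pigs, so that breed and days on trial cannot be told apart. The question was by how much, and in which pigs, the 3 receptors differed between the fatter AL and the leaner BI breed.

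A G-protein-coupled receptor crosses the cell membrane with 7 helices and passes a signal from outside to a G protein inside the cell. Catecholamines act on fat cells through opposed receptor classes: beta receptors raise cyclic AMP and thereby the breakdown of stored triglyceride, whereas alpha-2 receptors couple to the inhibitory Gi proteins, lower cyclic AMP and restrain lipolysis. ADRA2C is the alpha-2C subtype, known best from neurons and blood vessels. Adhesion receptors carry a long extracellular part that is cut from the membrane part by the receptor itself. ADGRB1, also known as brain angiogenesis inhibitor 1, is abundant in brain, holds thrombospondin repeats and takes part in the uptake of apoptotic cells, and ADGRG1, also known as GPR56, binds collagen III and marks cytotoxic lymphocytes among other cells.

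On Sscrofa11.1, the assembly used for the alignment, the RefSeq annotation places ADRA2C (ENSSSCG00000008703) on the plus strand of chromosome 8 from 2320125 to 2322162, as a gene with 1 exon of 2038 bases of which 1383 are coding. ADGRB1 (ENSSSCG00000035891) lies on the minus strand of chromosome 4 from 1582321 to 1658639, with 34 exons. ADGRG1 (ENSSSCG00000002815) lies on the plus strand of chromosome 6 from 19523618 to 19570891, where RefSeq lists 11 mRNAs with 11 different start positions, and ADGRG3, another adhesion receptor, follows 2189 bases downstream on the same strand. No exon of the 3 genes overlaps an exon on the opposite strand, and no gene on the opposite strand ends within 5 kb of their 3′ ends. The closest gene on the opposite strand is LOC106504574, a protein-coding gene 693 bases before the start of ADRA2C. The libraries were stranded but the strand setting used in the counting is not given in the sources used here, so that reads of the gene and of its opposite strand cannot be told apart by their label. The share of opposite-strand reads in the counts of the 3 genes was not tested.

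The 250 bases before the outermost annotated start of each gene are shown because the 3 receptors were all lower in AL on average. They were read from the Sscrofa11.1 genome in the direction of transcription. Of the 11 start positions of ADGRG1, only the outermost was used. Capitals mark matches to the letters TGANTCA (AP-1), TGACGTCA (CRE), GGGCGG (GC box) or GCGNGGGCG (EGR) on either strand, where N is any base.
ADRA2C, chr8:2319875-2320124, plus strand: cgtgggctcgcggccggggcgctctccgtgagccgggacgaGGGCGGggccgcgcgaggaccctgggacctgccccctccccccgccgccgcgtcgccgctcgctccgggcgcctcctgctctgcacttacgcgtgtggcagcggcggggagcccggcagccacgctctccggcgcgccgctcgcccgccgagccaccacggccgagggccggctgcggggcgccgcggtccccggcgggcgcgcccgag
ADGRB1, chr4:1658640-1658889, minus strand: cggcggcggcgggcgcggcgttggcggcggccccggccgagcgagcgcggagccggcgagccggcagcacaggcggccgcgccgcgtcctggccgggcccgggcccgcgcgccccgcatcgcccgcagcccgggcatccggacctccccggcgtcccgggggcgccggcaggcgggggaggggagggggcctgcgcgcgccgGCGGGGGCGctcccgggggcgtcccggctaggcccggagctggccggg
ADGRG1, chr6:19523368-19523617, plus strand: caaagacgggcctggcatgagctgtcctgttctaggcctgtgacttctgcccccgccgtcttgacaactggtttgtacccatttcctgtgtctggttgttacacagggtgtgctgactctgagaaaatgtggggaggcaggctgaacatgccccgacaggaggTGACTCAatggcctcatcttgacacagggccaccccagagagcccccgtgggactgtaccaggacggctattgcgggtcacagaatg

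The windows of ADRA2C and ADGRB1 are made of G and C for 83.6% and 88.4% of their bases, against a median of 57.6% over 19545 promoters of protein-coding genes of the same length, and that of ADGRG1 lies at this median. Each window holds 1 match, a GC box in ADRA2C, the EGR letters in ADGRB1 and the AP-1 letters in ADGRG1. The GC box is found in 45.9% of all promoters, the EGR letters in 9.50% and the AP-1 letters in 5.25%. None of the 3 windows holds the CRE letters, which 1.70% of all promoters hold. These are matches of letters and describe the sequence only.

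The counts behind the 3 receptors were low. Over the 8 pigs, the mean normalized count, which is the number of reads divided by the size factor of the pig, was 26.0 for ADRA2C, 20.6 for ADGRG1 and 11.3 for ADGRB1. As counts, which also depend on the length of a gene, these means rank 369th, 402nd and 454th among the 458 genes, and in the authors' table of 10710 genes 35.1%, 40.3% and 55.4% of the genes have a higher mean. Every value was a whole multiple of the smallest step in its pig, and this step was taken as 1 read. The step rests on 98 to 138 values of at most 20 reads in the AL pigs but on only 41 to 61 in the BI pigs. On this reading there were 48 reads in AL and 190 in BI for ADRA2C, 36 and 152 for ADGRG1, and 12 and 97 for ADGRB1. A single read was worth 0.907 to 1.48 normalized counts in the AL pigs and 0.687 to 0.945 in the BI pigs, so that the AL values rest on fewer reads. The intervals of single pigs given below are exact Poisson intervals at 95%. Those of the ratios are exact binomial intervals at 95% on the reads summed over each breed. Both cover counting error only and leave out the spread between pigs.

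Levels of different genes can be compared only per length. Per kb of exon in the RefSeq annotation, the mean was 12.7 normalized counts for ADRA2C, 2.83 for ADGRG1 and 1.98 for ADGRB1. The authors used an Ensembl release of the pig genome, so that reads may have been counted over other exon lengths. In AL the values were 7.01 for ADRA2C, 1.46 ± 0.601 (SD, n = 4) for ADGRG1 and 0.579 ± 0.619 (SD, n = 4) for ADGRB1, and in BI they were 18.5, 4.203 ± 2.25 (SD, n = 4) and 3.38 ± 3.36 (SD, n = 4), respectively. The order was the same in both breeds, but ADGRG1 and ADGRB1, its neighbour below, lay within their spread of each other. The exon length of ADGRG1 is the union over its 11 mRNAs, and per kb of coding sequence the means over the 8 pigs were 18.8, 8.52 and 2.38 for ADRA2C, ADGRG1 and ADGRB1.

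ADRA2C, the receptor of the antilipolytic class, was higher in all 4 BI pigs than in any AL pig. The AL pigs 44, 49, 52 and 63 had 16.3, 9.07, 17.2 and 14.6 normalized counts, from 10 to 16 reads each. The BI pigs 25, 34, 36 and 37 had 37.5, 35.7, 27.4 and 49.997 normalized counts, from 29 to 60 reads each. AL pig 49 was the lowest and BI pig 37 the highest, and the gap between the breeds lay between AL pig 52 and BI pig 36. The AL mean was 14.3 ± 3.65 and the BI mean 37.6 ± 9.33 (SD, n = 4 each). The ratio of the summed reads, corrected for the size factors, was 2.73 in favour of BI (95% counting interval 1.98 to 3.83). The log2 fold change (log2 FC), taken throughout as the mean log2(normalized count + 1) of AL minus that of BI, was −1.34 with a standard error of 0.26 (two-sided exact permutation over 70 splits, p = 0.029, the smallest value that 4 against 4 pigs allow).

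The counting intervals of the single pigs still touch, since the interval of AL pig 44 reaches 29.2 normalized counts and that of BI pig 36 begins at 18.4. Within AL the SD of 3.65 was no larger than the 4.19 that counting alone gives at this depth, and within BI the SD of 9.33 stood beside 5.49. ADRA2C was thus the steadiest of the 3 receptors from pig to pig, with an SD of log2 values of 0.39 in AL and 0.35 in BI, against medians of 0.34 and 0.48 over the 458 genes. Without single pigs, BI exceeded AL by a ratio of means of 2.35 at the lowest and 2.87 at the highest.

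**Figure D1:**
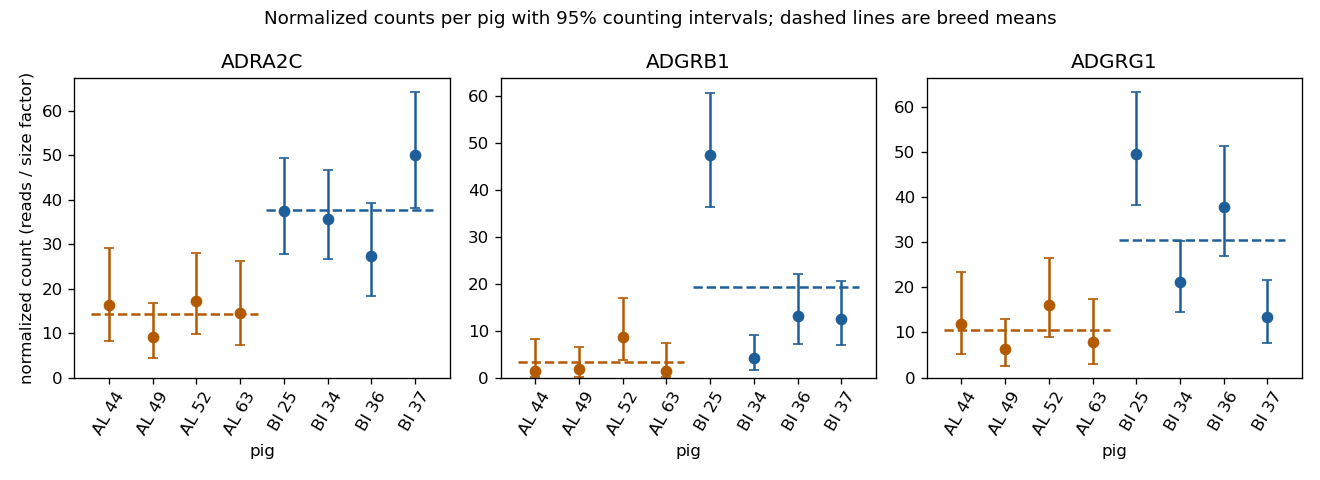
Normalized counts (vertical axis, reads divided by the size factor) of ADRA2C, ADGRB1 and ADGRG1 in each of the 4 AL (brown) and 4 BI (blue) pigs, with exact 95% Poisson intervals as bars and breed means as dashed lines. ADRA2C does not overlap between the breeds, BI pig 25 has 47.4 normalized counts of ADGRB1 while the other 7 pigs have at most 13.2, and BI pig 37 has 13.3 of ADGRG1, under AL pig 52 with 16.1.

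ADGRB1 was near the limit of counting in AL and uneven in BI. AL pigs 44, 49, 52 and 63 had 1.48, 1.81, 8.60 and 1.33 normalized counts, which are 1, 2, 8 and 1 reads. BI pigs 25, 34, 36 and 37 had 47.4, 4.12, 13.2 and 12.5 normalized counts, from 62, 6, 14 and 15 reads. BI pig 25 held 62 of the 97 reads of its breed, and AL pig 52 lay above BI pig 34, so that the breeds overlapped. The AL mean was 3.31 ± 3.54 and the BI mean 19.3 ± 19.2 (SD, n = 4 each). On the log2 scale AL minus BI came to −2.06 (standard error 0.82), which was not past the threshold of 0.05 (exact permutation, two-sided, p = 0.057).

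For ADGRB1 the ratio of the summed reads was 5.57 in favour of BI, with a counting interval of 3.05 to 11.2. The ratio of the breed means was 5.84, but 3.01 without BI pig 25 and 12.5 without AL pig 52. Counting alone would give an SD of 3.94 in BI, and the observed SD of 19.2 was well above it. On the log2 scale the spread between pigs of a breed ranked 16th of the 458 genes in AL and 16th in BI. Even without BI pig 25 the log2 FC was −1.49 and the breeds overlapped, whereas without AL pig 52 or without BI pig 34 they did not.

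ADGRG1 lay between the others in its spread from pig to pig. The AL pigs 44, 49, 52 and 63 had 11.9, 6.35, 16.1 and 7.97 normalized counts, from 6 to 15 reads each. The BI pigs 25, 34, 36 and 37 had 49.7, 21.3, 37.8 and 13.3 normalized counts, from 16 to 65 reads each. Only BI pig 37 and AL pig 52 kept the breeds from separating, and 3 AL pigs lay below the lowest BI pig. The AL mean was 10.6 ± 4.36 and the BI mean 30.5 ± 16.3 (SD, n = 4 each). This log2 FC, −1.36 with a standard error of 0.49, missed the threshold as well (exact permutation, two-sided, p = 0.057).

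The ratio of the summed reads of ADGRG1 was 2.91 in favour of BI (95% counting interval 2.01 to 4.31), close to that of ADRA2C, and the ratio of the breed means ranged from 2.28 to 3.50 over the fits without 1 pig. The spread differed from that of ADRA2C. In BI the SD was 16.3 where counting alone gives 4.99, whereas in AL the SD of 4.36 stood beside 3.58. The breeds did not overlap without AL pig 52 or without BI pig 37.

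All 3 receptors were thus lower on average in AL, and 1 of the 3 was without overlap. Of the 458 genes 79.5% were without overlap, 221 with the higher values in AL and 143, or 31.2%, with the higher values in BI. The linear model of limma called all 3 receptors, as it did 99.6% of the 458 genes (adjusted p under 0.05). Among the 113 genes that were higher in BI and had a mean under 50 normalized counts, as the 3 receptors do, 69.0% did not overlap. These genes had been chosen by the authors for a difference between the same 8 pigs, so that the exact test describes how far the pigs lie apart and is no independent test. The log2 FC of −2.06 of ADGRB1 ranked 30th in size among the 458 genes, and those of ADGRG1 and ADRA2C 154th and 164th. The median log2 FC was −1.29 over the 195 genes higher in BI. When the values were rescaled by a median of ratios over the 458 genes, 102 genes without overlap had the higher values in AL and 171 in BI. The log2 FC of the 3 receptors then moved further below zero, while the median over the 458 genes shifted by −0.51.

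**Figure D2:**
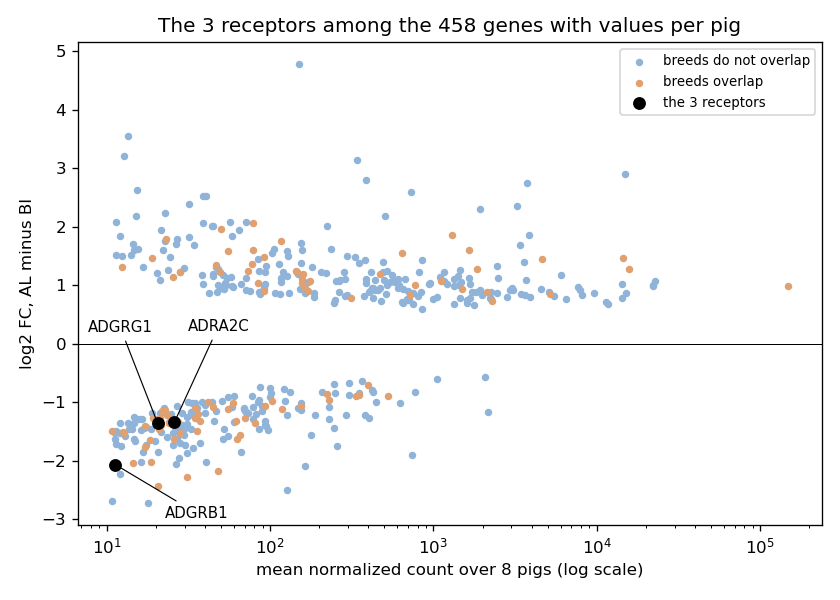
Each point is 1 of the 458 genes, with the mean normalized count over 8 pigs on the horizontal axis (log scale) and the log2 FC, AL minus BI, on the vertical axis. Blue points are genes whose breeds do not overlap, brown points are genes whose breeds overlap, and the 3 receptors (black) lie at the low end of the counts between log2 FC −2.06 and −1.34.

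The size of the breed difference could also be compared between the receptors within each pig, where the size factor largely cancels. Taken as ADGRB1 minus ADRA2C on the log2 scale, the difference was −2.08 ± 0.89 for the AL pigs and −1.36 ± 1.35 for the BI pigs (SD, n = 4 each). The breeds thus differed by −0.72 with a standard error of 0.81 (two-sided exact permutation test, p = 0.543, or 0.814 after Benjamini-Hochberg adjustment over the 3 pairs). For ADGRG1 against ADRA2C they differed by −0.02 with a standard error of 0.56 (exact permutation p = 1, adjusted 1), and for ADGRB1 against ADGRG1 by −0.70 with a standard error of 0.61 (exact permutation p = 0.286, adjusted 0.814). None of the 3 pairs passed the test, and standard errors of 0.56 to 0.81 leave sizeable differences between the receptors undetectable with these pigs.

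**Figure D3:**
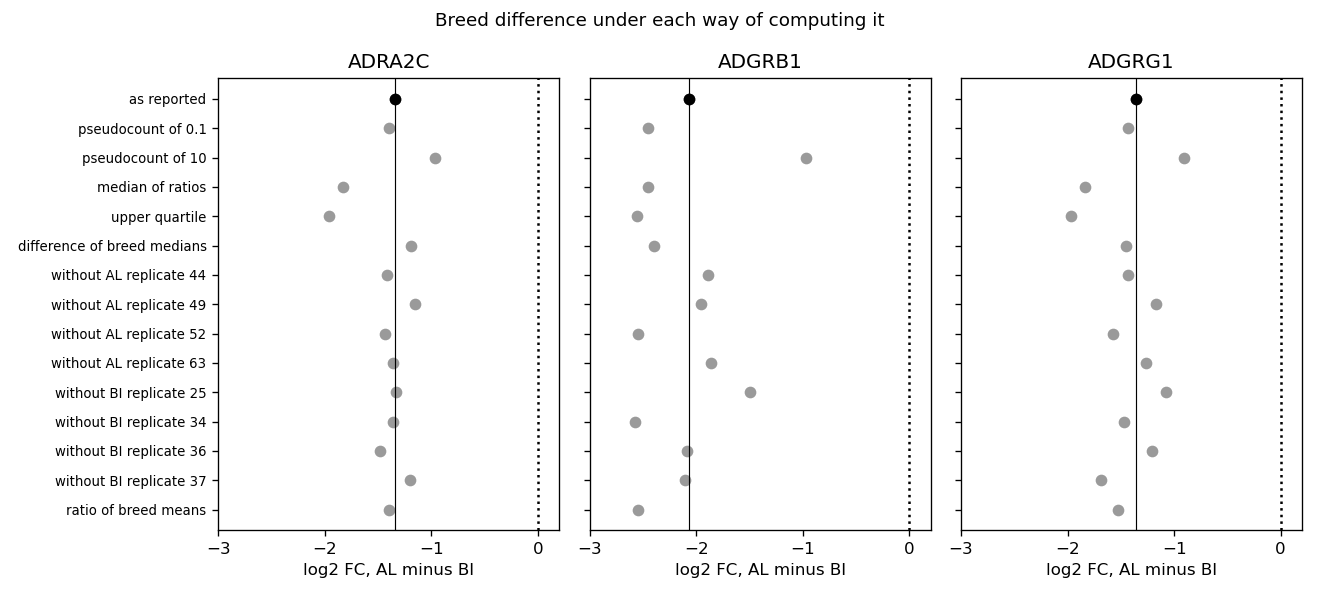
The log2 FC, AL minus BI (horizontal axis), of each receptor as reported (black) and under other pseudocounts, rescalings, summaries and with each pig left out (grey). All values lie below zero, from −1.96 to −0.96 for ADRA2C, −2.57 to −0.97 for ADGRB1 and −1.96 to −0.91 for ADGRG1.

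The pigs did not hold the same order in the 3 receptors. AL pig 52 had the highest AL value of all 3, and AL pig 49 the lowest of ADRA2C and ADGRG1. Over the 458 genes AL pig 52 was the highest AL pig in 99, or 21.6%. In BI, pig 25 was highest for both adhesion receptors and pig 37 for ADRA2C, and pig 25 was the highest BI pig in 81 of the 458 genes, or 17.7%. After each gene had been centred on its own mean over the 8 pigs, ADGRB1 and ADGRG1 differed by 0.71 log2 units per pig on average, and ADGRG1 ranked 8th in closeness to ADGRB1 among the 458 genes. ADRA2C differed less from ADGRG1, by 0.52, and more from ADGRB1, by 0.89, yet these ranked only 148th and 188th in closeness to ADRA2C.

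By the same measure, the named genes closest to ADRA2C were CDV3, NUMBL and HLX, which differed from it by 0.23, 0.24 and 0.25 log2 units per pig on average, against a median of 1.09 over the 458 genes. Closest to ADGRG1 were ARHGAP27 with 0.27, RPUSD1 with 0.27 and SHANK3 with 0.30, against a median of 1.14. The closest to ADGRB1 were farther away, with 0.58 for CYP2A19, 0.63 for LYL1 and 0.67 for SH2D3C, against a median of 1.48. All 9 genes were lower in AL on average, which follows from choosing them by nearness to genes lower in AL. The breeds overlapped in 4 of them, CYP2A19, SH2D3C, ARHGAP27 and RPUSD1, while 79.5% of the 458 genes were without overlap.

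The levels of the other members of the receptor families are known only as the authors' means over the 8 pigs, which do not separate the breeds. Of 9 adrenergic receptors, 4 could be matched by identifier to a row of the authors' table. Their means are not set per length here, so that they show how many reads each receptor had and give no order of transcript levels. ADRA2C had 26.0 normalized counts. ADRB1, a beta receptor that activates lipolysis, had 12.03, and the alpha-1 receptors ADRA1B and ADRA1D had 7.37 and 4.18. Of 33 adhesion receptors, 13 were matched, with mean normalized counts from 2.65 for ADGRG2 to 271 for CELSR1. ADGRL1, ADGRA2 and ADGRE5 had 47.7, 33.0 and 31.7, beside 20.6 for ADGRG1 and 11.3 for ADGRB1. The median count over the 10710 genes was 13.7. Receptors without a matched row were not analysed here.

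**Figure D4:**
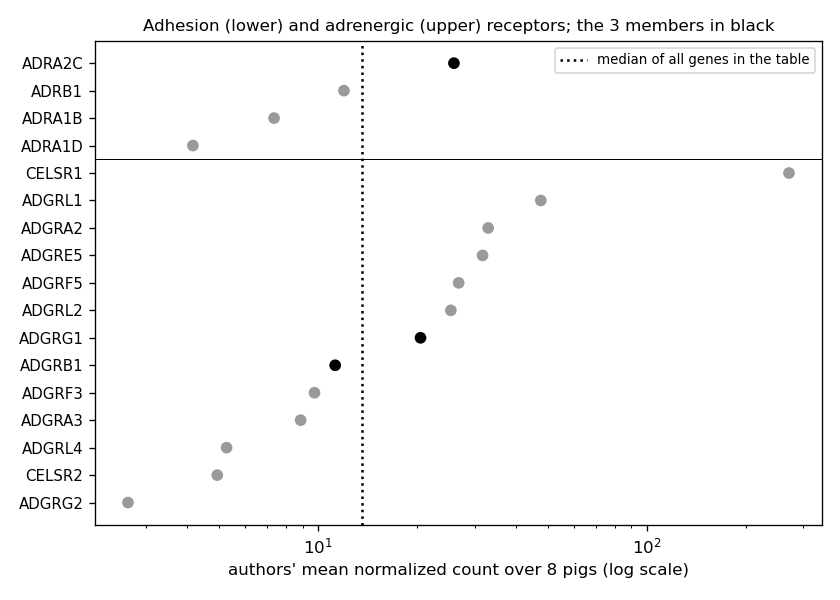
The authors' mean normalized count over the 8 pigs (horizontal axis, log scale) of the 4 adrenergic (upper block) and 13 adhesion receptors (lower block) with a matched row, the 3 members in black. The counts are not per length, and the dotted line is the median count of 13.7 over the 10710 genes, which lies between ADGRB1 with 11.3 and ADGRG1 with 20.6.

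Of 45 other G-protein-coupled receptors listed for fat, vessels and immune cells, 4 had values per pig. All 4 had the AL and BI pigs fully apart (exact permutation test, two-sided, p = 0.029 for each), as did 79.5% of the 458 genes. GPR171, a receptor known from T cells, was higher in AL with 64.8 ± 23.9 (SD, n = 4) against 13.0 ± 9.45 (SD, n = 4) normalized counts. HCRTR1, the orexin receptor 1, and PTGDR2, a prostaglandin D2 receptor coupled to Gi, were also higher in AL, with log2 FC of 0.95 and 0.86. TAS2R39, a bitter taste receptor, was higher in BI, with at most 1.33 normalized counts in AL and 1.53, 38.5, 2.83 and 39.997 in BI pigs 25, 34, 36 and 37, so that its separation rests on a gap of about 1 read. HCRTR1 had an authors' mean of 3014, whereas the 10 adipocyte markers listed below had means from 10.9 to 1567. PEF1 ends on the opposite strand less than 5 kb from the 3′ end of HCRTR1, while PTGDR2 shares exonic bases with CCDC86 on the opposite strand. What these neighbours contribute was not tested. ADRA2C thus shared its direction with 1 of these 4 receptors.

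Downstream of the receptors, 4 of 58 listed genes of G proteins and cyclic AMP signalling had values per pig, 1 higher and 3 lower in AL. All 4 were without overlap, as were 79.5% of the 458 genes. GNAT2, a G protein alpha subunit known from cone photoreceptors, was higher in AL with a log2 FC of 1.31. AKAP17A, PPP1R1B, an inhibitor of protein phosphatase 1 that is switched by protein kinase A, and CREBBP, the coactivator of CREB, were higher in BI with log2 FC of −1.08, −0.98 and −1.11. The inhibitory alpha subunit GNAI2, through which alpha-2 receptors signal, had an authors' mean of 125 normalized counts, and the adenylyl cyclases ADCY3, ADCY4 and ADCY5 had 20.04, 27.8 and 22.5. Among 12 genes listed for catecholamine supply and breakdown, only SLC6A4 had values per pig, and this gene encodes the serotonin transporter. SLC6A4 was higher in BI, with 9.30 to 17.8 normalized counts in AL and 27.5 to 59.2 in BI. Its log2 FC was −1.40, where the median over the 195 genes higher in BI was −1.29.

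The lipolysis list held 6 of 19 genes with values per pig, 3 with the higher mean in AL and 3 in BI. Only PCK1 of the 6 overlapped between the breeds, where 79.5% of the 458 genes were without overlap. IRS1, 1 of the 3 in AL, carries another identifier in the reference than in the deposited values. NPR3, the clearance receptor for natriuretic peptides, was higher in AL with 34.2 ± 5.37 (SD, n = 4) against 9.14 ± 4.69 (SD, n = 4) normalized counts. NPR2, a natriuretic peptide receptor with guanylyl cyclase activity, and AQP3, a channel for water and glycerol, were higher in BI, with log2 FC of −0.76 and −1.32. The lipases LIPE and PNPLA2, through which alpha-2 and beta receptors act on triglyceride, had authors' means of 274 and 341 normalized counts and no values per pig.

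Of 23 ligands and partners of adhesion receptors and proteins with related matrix roles, 7 had values per pig, 5 of them lower in AL. Among the 458 genes, 195 were lower in AL on average and 79.5% were without overlap in either direction. THBS3 and THBS4, matrix proteins of the thrombospondin family, went in opposite directions, with log2 FC of −1.53 and 2.39. The laminin chains LAMB1 and LAMB2 did so as well, with 1.03 and −1.01. AGRN, a basement membrane proteoglycan, and SHANK3, a scaffold protein of synapses, were higher in BI without overlap, with log2 FC of −1.46 and −1.58, while COL2A1 overlapped. COL3A1, a ligand of ADGRG1, had an authors' mean of 838 normalized counts, and TGM2, another binding partner, 33.1. The median log2 FC of the 7 genes was −1.09, which restates that 5 of them were lower and 2 higher in AL. Over the 458 genes the median was 0.83, and a shift of the list against it was not tested.

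**Figure D5:**
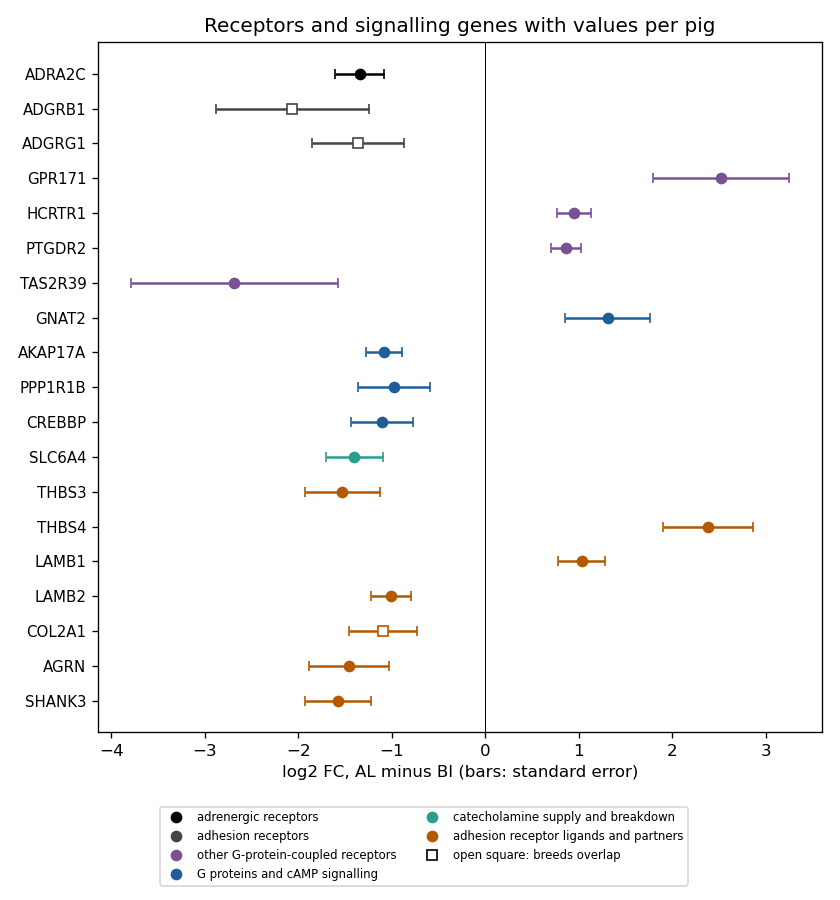
The log2 FC, AL minus BI (horizontal axis, bars are standard errors), of the 3 receptors and of the receptor, G protein, catecholamine and adhesion partner genes that have values per pig, coloured by list. Open squares mark genes whose breeds overlap, which are ADGRB1, ADGRG1 and COL2A1.

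The 3 receptors are found in several cell types of fat, and in whole tissue fewer cells of a type and less RNA per cell cannot be told apart. All 10 adipocyte markers had a row in the authors' table, with means from 10.9 for PPARG to 1567 for PLIN1. The 4 with values per pig were higher in AL on average, 2 of them without overlap, beside 79.5% of the 458 genes. Those 4 summed to 1274 to 1636 normalized counts in AL and 558 to 823 in BI. Only genes that the authors had called between the breeds have values per pig. Separation of such sums, here and for the cell types below, follows from that choice and is no independent result. Of 13 endothelial markers, 11 had a row in the authors' table and 6 had values per pig. PECAM1 and CDH5, with authors' means of 130 and 78.8 normalized counts, were among those without values per pig. Of the 6, 5 (TIE1, CLEC14A, PODXL, DLL4 and LYL1) were lower in AL on average, 4 of them without overlap, beside 73.3% of all genes with the higher mean in BI. Summed, those 5, grouped by their shared direction, gave 53.5 to 84.4 normalized counts in the AL and 129.99 to 204 in the BI pigs. EGFL7 was higher in AL and so abundant that the sum over all 6 was 2238 to 3676 in AL and 1494 to 2066 in BI.

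Of 17 neuron and Schwann cell markers, 8 had a row in the authors' table and 6 had values per pig. SOX10 and SYP, with authors' means of 865 and 14.5 normalized counts, had no values per pig. Of the 6, 5 were lower in AL on average. Without TUBB2B, the most abundant of the 6 and the only one higher in AL, the others summed to 58.0 to 66.7 normalized counts in AL and 90.7 to 339 in BI. MAPT and NOVA2 were without overlap. Beside this and the markers without overlap named below, the share over the 458 genes was 79.5%. With TUBB2B the 6 summed to 853 to 1181.5 in AL and 484 to 1230 in BI, which overlap. Of 15 lymphocyte and natural killer cell markers, 5 were matched to a row of the authors' table, with means of 24.9 for NKG7, 12.3 for PRF1 and 5.58 for GNLY. The 2 with values per pig went in opposite directions, both without overlap. IL2RA was higher in BI (log2 FC −1.53), with 77.2 normalized counts in BI pig 25, and GPR171 was higher in AL (log2 FC 2.52), with 12.2 in BI pig 25. All 9 smooth muscle and pericyte markers had a row, from 3.07 for DES to 129 for PDGFRB, and none had values per pig. Of 10 macrophage markers only SPP1 had values per pig, 58.4 to 133 normalized counts in AL and 3.82 to 38.5 in BI, with no overlap. Of 10 skeletal muscle markers 3 had values per pig. FBXO40 and MYBPH were higher in AL without overlap (log2 FC 1.18 and 1.19), whereas MYH7, which the reference names MYH6, had a mean of 4.84 in AL and 24.2 in BI with overlap. The 3 summed to 715 to 1514 in AL and 314 to 593 in BI, most of it FBXO40. The part of these cell types in the receptor differences was not tested.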

How the data were processed

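RNA-seq of 8 pigs was used. The authors trimmed the reads with Trim Galore 0.5.0, aligned them to Sscrofa11.1 (HISAT2 2.1.0) and counted them per gene (HTSeq 0.11.1). The deposited signal per pig, for the 458 genes that passed the authors' own test, consists of read counts scaled by DESeq2 size factors, and a mean signal was deposited for 10710 genes. The deposited fold changes, test statistics and p-values of the authors were not used. All values were whole multiples of a step taken as 1 read (tolerance 0.02), which gave size factors of 0.675 to 1.46. Between 359708 and 883622 reads per pig fell on the 458 genes.

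The log2 FC of log2(normalized count + 1) was tested by two-sided exact permutation over 4 AL against 4 BI pigs. Low values were not filtered. In limma 3.58.1, fitted over the 458 genes, 99.6% were called. No batch is named in the sources. Names were taken from the file or by identifier, for 8955 of the 10710 genes, and the 3 receptors carried the same name in both. Genes named are the 3 receptors, the 3 genes with the nearest profile to each, and members of lists. Members and lists were chosen with earlier results of these data known. Alternatives were other pseudocounts, rescalings, summaries and tests, a mean count limit of 50, and leaving out each pig. Calculations were tested on simulated data. Python 3.11.15, NumPy 2.4.6, pandas 2.3.3, SciPy 1.17.1, Matplotlib 3.10.9, pysam 0.24.0 and R 4.3.3 were used.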

Additional observations from a re-analysis of the deposited data

Results flagged for a closer look

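ADGRB1 in AL pig 52 stood apart from the other 3 AL pigs, with 8.60 normalized counts against at most 1.81, and the gap took up 0.933 of the range of the breed, above Dixon's 95% limit for 4 samples. The value rests on 8 reads. About 1 group in 20 passes this limit by chance, and 6 groups were examined.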

How the results depend on the processing

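The log2 FC of the 3 receptors stayed below zero under all 16 alternatives of each. Among these, limma and the rank-sum test leave the log2 FC itself unchanged. Both rescalings moved the median log2 FC of the 458 genes downward too, so that they are no independent check of this direction. With 3 pigs against 4 the smallest exact p is 0.057, so that leaving out a pig cannot pass the threshold. In that way ADRA2C ranged from −1.48 to −1.15, ADGRB1 from −2.57 to −1.49 and ADGRG1 from −1.68 to −1.08. As a difference of breed medians, ADRA2C was −1.19 (exact permutation p = 0.057), and over its alternatives p lay between 0.0052 (limma, adjusted) and 0.057. By limma, ADGRB1 (−2.06, adjusted p = 0.011) and ADGRG1 (−1.36, adjusted p = 0.011) were called, as were 456 of the 458 genes. The within-pig difference of ADGRG1 against ADRA2C turned to 0.056 with a pseudocount of 10, where those of ADGRB1 against ADRA2C and against ADGRG1 shrank to −0.0077 and −0.064. Without single pigs the first ranged from −0.49 to 0.27. That of ADGRB1 against ADRA2C ranged from −1.22 to −0.16 and that of ADGRB1 against ADGRG1 from −1.10 to −0.42. The genes without overlap numbered 235 after rescaling to the upper quartile, and 368 to 411 without single pigs. The genes without overlap were 273 after rescaling by a median of ratios. The median log2 FC of the 458 genes fell by 0.51 under the median of ratios and fell by 0.65 under the upper quartile. The planned count-model tests on recovered reads were not run, because only 3 of the 8 pigs had 100 or more values of at most 20 reads, the number asked for before reads were used in such a test. The reads and their intervals rest on the same recovery. No paired analysis was possible because the breeds share no replicate number. The 1 to 8 reads of ADGRB1 and 6 to 15 reads of ADGRG1 in each AL pig limit what can be said of them.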
